A study of Mus musculus with 4 samples.

Results

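The carbonic anhydrases described here are the 10 mouse genes Car2, Car3, Car4, Car6, Car8, Car9, Car12, Car13, Car14 and Car15. They were found as the non-control probes that carry these gene names on the 4 arrays, which gave 12 probes of 55681 and 10 genes of 34821 gene names. The genes were chosen by their measured log2 differences between the 2 groups, which were known beforehand, so their levels and differences are given as a description, without a test. Carbonic anhydrases are zinc enzymes that interconvert carbon dioxide and water with bicarbonate and a proton. Their isozymes are sorted by place: in the cytosol, on the outer face of the membrane, across the membrane, in mitochondria or secreted, and a few related proteins have lost the activity. In the pancreas they are best known from the duct epithelium, which uses them to make a bicarbonate-rich fluid.

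The arrays compared islet-like clusters (2 arrays) with islets (2 arrays) from male Swiss albino mice aged 10 to 12 weeks, with pancreata of 2 to 4 mice pooled. The clusters had been formed from plastic-adherent, fibroblast-like pancreatic cells that the labels call MSC-like (resembling mesenchymal stromal cells), during 10 days of suspension culture in low-adherence dishes without serum but with insulin, transferrin and selenium. The medium held 0.3 mM taurine from day 3, and from day 7 it held taurine at 3 mM, nicotinamide at 100 mM and GLP-1, an incretin peptide. The islets were flushed from the same kind of collagenase digest. Their titles give 48 h of culture and their descriptions call them freshly isolated. The undifferentiated cells were not among the arrays, so a difference between clusters and islets does not show what induction changed. The labels do not say whether the arrays of a group came from separate pools of mice, so p-values below reflect no more than the spread of these 4 arrays, part of which may be technical.

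Levels are log2 signals relative to the 75th percentile of the array, so 0 is that percentile itself, and each difference is the mean of the clusters minus the mean of the islets. The SE of a difference comes from the limma fit to all genes. Between 59.7% and 63.6% of spots were well above background on an array, and no spot was saturated. Pearson's r across genes was 0.985 for the pair of cluster arrays, 0.989 for the pair of islet arrays and 0.796 to 0.810 across groups. Of 24595 genes tested, 14252 (57.9%) passed an adjusted p of 0.05 (limma, Benjamini-Hochberg), of which 6691 (27.2%) were higher and 7561 (30.7%) lower in the clusters. For 20423 genes (83.0%) the 2 groups did not overlap. The median difference over all genes was -0.15.

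The titles call the clusters insulin producing, and the markers did not match the labels in every respect. The summed signal of 12 islet endocrine markers, with the 75th percentile as 1, was 2.79 and 2.31 in the clusters and 171 and 30.4 in the islets. Of these 12, 6 were well above background on both cluster arrays (Ins1, Ins2, Sst, Chga, Pcsk1 and Pcsk2) and 10 on both islet arrays. Gcg, Ppy, Iapp, Pdx1, G6pc2 and Slc30a8 were above it on neither cluster array. Of the 10 tested, 9 were lower in the clusters, and Pcsk1, at a difference of 0.80, did not pass. The 12 acinar markers summed to 1.66 and 1.64 in the clusters and to 3957 and 6325 in the islets, and the 10 duct markers to 5.63 and 5.98 in the clusters and to 328 and 327 in the islets. On both islet arrays all 12 acinar and all 10 duct markers exceeded background by this flag, so the islet RNA held acinar and duct transcripts. The 10 mesenchymal stromal markers summed to 2140 and 1952 in the clusters and to 40.3 and 49.9 in the islets. In bulk RNA such as this, fewer cells of a type and less RNA per cell cannot be told apart.

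**Figure D1:**
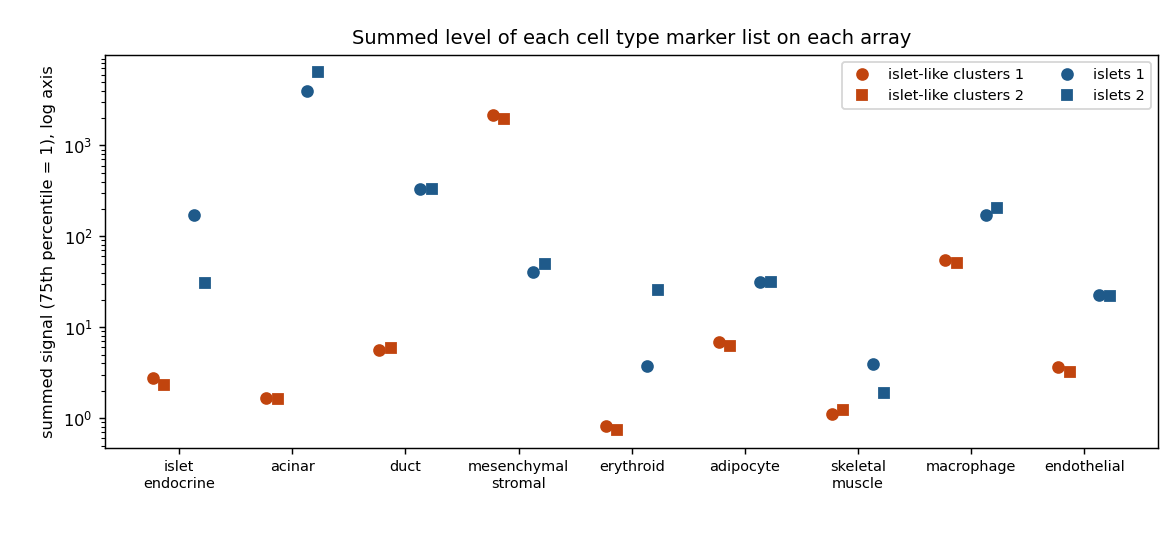
Summed signal of each cell type marker list on each array (log axis, 75th percentile of the array = 1), with islet-like clusters left of islets and circles and squares for replicates 1 and 2. Acinar and duct sums were highest in the islets, at 3957 and 6325 and at 328 and 327, and the stromal sum was highest in the clusters, at 2140 and 1952.

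Probes of these arrays are 60 bases long, and what a probe matches decides what its level reports. Stretches of 30 bases from the probes of the genes that differed most, and from the 2 probes of Car4, are shown 5′ to 3′ as the deposited files give them. Capitals mark bases of the Car9 probe that lie in a run of 16 shared with the promoter of another gene, and, in the Car4 probe at transcript base 1230, the polyadenylation signal AATAAA.
Car6: gccgaaaaaagaaaaccattcaccttgatc
Car9: TTGAATGCTGGGATTACAGgaatgcaccat
Car2: cctctcatccgttgtgcttactaacaaaat
Car12: gccactgtgataattgtctgctcagcattt
Car4, probe at transcript base 470: tgcacctgcactggtcaaatgggaatgaca
Car4, probe at transcript base 1230: aAATAAAatatggatatgtttttagaaaaa
The longest run that any of the 12 probes shared with a probe of another gene was 13 to 16 bases. Runs of 16 bases of the Car9 probe occurred in the promoters of 6 other genes, and those of the Car4 probe at base 1230 in 4, among 32851 RefSeq promoters of GRCm38.p6. Each of the 2 Car8 probes shared such a run with the promoter of 1 other gene, and the remaining 8 probes shared none. Together the shared runs covered bases 1 to 19 of the Car9 probe and bases 2 to 42 of the Car4 probe at base 1230. The stretch of this Car4 probe shown above starts at its base 31, and its shared bases are not in capitals. The capital letters of the Car9 probe resemble the rodent B1 repeat, an interspersed element present in very many copies, which the files do not annotate. Whether other transcripts bound the Car9 probe or the Car4 probe at base 1230 was not tested.

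Among the 10 genes, 8 had a probe that could be tested and 7 of these were well above background on all 4 arrays. Car3 and Car8 were not well above background on any array, and Car9 was above it on both islet arrays and on 1 of 2 cluster arrays, so it entered the comparison through the islets, where it was high. Past the threshold used for all genes were 4 of 8, beside 57.9% of all genes. The 2 higher ones were Car6 and Car12, beside 27.2% of all genes, and the 2 lower ones Car2 and Car9, beside 30.7%. The groups did not overlap for 6 of 8, beside 83.0% of all genes, and overlapped for Car14 and Car15. Since the genes were picked for these values, nothing is read from the counts. The median difference of the 8 was -0.13, against -0.15 over all genes.

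**Figure D2:**
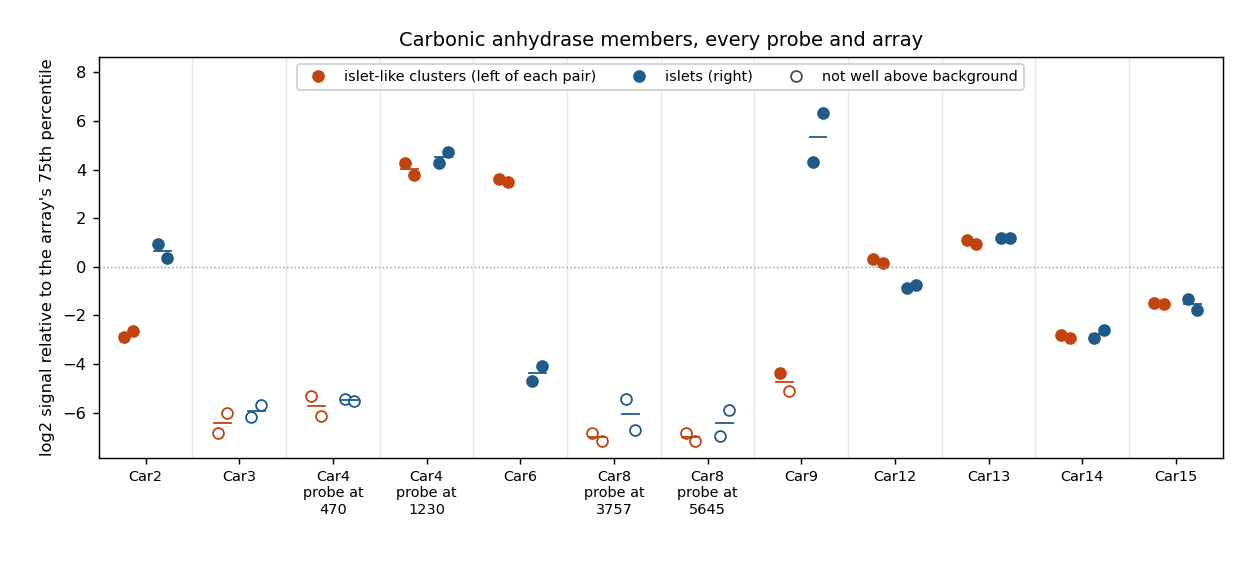
Level of every probe of the 10 genes on each array, as log2 signal relative to the 75th percentile of the array, with islet-like clusters left of islets, short lines at group means and open circles for signals not well above background. Car6 stood at 3.59 and 3.48 in the clusters and at -4.68 and -4.09 in the islets, and Car9 at -4.38 and -5.09 in the clusters and at 4.33 and 6.35 in the islets.

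The cytosolic isozymes were Car2, Car3 and Car13. Car2, the fast and widely used isozyme of red cells, kidney tubules, osteoclasts and pancreatic duct cells, had levels of -2.89 and -2.64 in the clusters and of 0.93 and 0.35 in the islets. Every cluster array lay below every islet array, and the difference of -3.41 ± 0.25 (SE, n = 2 each) is 10.6-fold lower in the clusters. Its probe lies at chr3:14900206-14900265 (mm9, plus strand), at base 1225 of the transcript. With normexp background correction the difference was -2.36.

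Markers of other cells that carry Car2 can be set beside this difference. The 10 erythroid markers summed to 0.824 and 0.745 in the clusters and to 3.75 and 26.0 in the islets, with 2 of 10 well above background on both cluster arrays and 5 of 10 on both islet arrays. Between the islet arrays, Car2 was higher on the one with the lower erythroid sum, replicate 1. The endocrine sum, at 171 against 30.4, and the skeletal muscle sum, at 3.96 against 1.90, were also higher on replicate 1. The acinar, mesenchymal stromal and macrophage sums were higher on replicate 2. With 2 islet arrays only their order can be compared. The duct sum differed little between the islet arrays, at 328 and 327. Of the 10 duct markers, 3 were well above background on both cluster arrays, and Krt7, Tff2, Onecut1 and Wfdc2 on neither. The part of these cells in the Car2 difference was not tested.

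Car3, the isozyme of fat and skeletal muscle with low hydration activity, had 1 probe, at chr3:14871781-14871840 (mm9). It was not well above background on any array, so no level or fold is given. Some markers of the tissues rich in it gave a signal and others did not. The 9 adipocyte markers summed to 6.85 and 6.17 in the clusters and to 31.2 and 31.8 in the islets, with Adipoq, Lep and Cfd not tested because no probe passed the filter on dim signals. The brightest adipocyte marker was Fabp4, at 2.63 and 2.48 in the clusters and at 4.03 and 4.28 in the islets. Next came Cidea in the islets, at 3.84 and 3.56. The adipocyte markers did not share a direction. Of the 6 tested, 4 were lower in the clusters and 2 were higher, Retn by 2.78 and Plin1 by 1.50. Among all genes, 30.7% were lower and 27.2% higher. The 10 skeletal muscle markers summed to 1.12 and 1.22 in the clusters and to 3.96 and 1.90 in the islets. Of these, Ckm, Myh1, Myh4, Mylpf and Mb were not tested. Of the 5 tested, 2 were lower in the clusters, 2 did not pass and 1, Actn3, was higher. Actn3 was well above background on neither islet array. Whether the samples held fat or muscle cells was not tested.

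Car13, another cytosolic isozyme, was close to even. Its levels were 1.10 and 0.95 in the clusters and 1.20 and 1.20 in the islets, from a probe at chr3:14662332-14662391 (mm9). Both cluster arrays lay below both islet arrays, by a difference of -0.17 ± 0.14 that is near the median of all genes and turns to 0.04 when arrays are scaled to their medians. Car13, Car1, Car3 and Car2 follow one another on chromosome 3 in the RefSeq table of GRCm38.p6, with 0 protein-coding genes between neighbours. Of these adjacent genes, Car2 and Car1 both lay lower in the clusters, at -3.41 and -1.17, the levels of Car13 lay close together, and Car3 was not detected.

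Car4 and Car15 are held on the outer face of the membrane by a lipid (GPI) anchor. Car4, which serves bicarbonate transport in lung capillaries, kidney tubules and other epithelia, gave a different picture for each of its 2 probes. The probe at base 1230 of the transcript (chr11:84779487-84779546, mm9) stood at 4.26 and 3.78 in the clusters and at 4.29 and 4.71 in the islets. Its difference was -0.48 ± 0.25, or 1.40-fold lower in the clusters, and cluster replicate 1 lay just below islet replicate 1. The probe at base 470 (chr11:84777667-84777726, mm9) was not well above background on any array.

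The bright Car4 probe thus reported a signal of like size in both groups that the other probe of the gene did not show. The bright probe holds the AATAAA printed above and lies towards the 3′ end of the transcript, from which the oligo-dT primer starts. It also ends in a run of 5 A. Whether the distance from the primer, another transcript end or binding of other sequences set the 2 probes apart was not tested.

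Car15, a GPI-anchored isozyme whose human counterpart is not functional, lay at -1.48 and -1.51 in the clusters and at -1.33 and -1.76 in the islets. The cluster values fell between the islet values. The difference was 0.05 ± 0.20, and it took both signs when single arrays were left out, from -0.17 to 0.26. Its probe is at chr16:17835369-17835428 (mm9).

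Car9, Car12 and Car14 cross the membrane with the active site outside the cell. Car9 is a classic target of the hypoxia-inducible factors and is otherwise known from stomach, gut and bile duct epithelium. Its processed signals were 15.8 and 10.5 intensity units in the clusters and 6088 and 18967 in the islets. On the log2 scale these were levels of -4.38 and -5.09 in the clusters and of 4.33 and 6.35 in the islets. Only cluster replicate 1 was well above background in the clusters, while both islet arrays were bright.

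The Car9 difference was -10.07 ± 0.74, with the SD 0.50 in the clusters and 1.43 in the islets. No other of the 8 genes differed as much between the islet arrays, where replicate 1 minus replicate 2 was -2.02. The difference was -11.08 without islet replicate 1 and -9.06 without islet replicate 2. With normexp background correction it was -7.33, so its size depends on how signals near background are treated, while clusters stayed below islets in all 16 alternatives. The probe is at chr4:43526518-43526577 (mm9, plus strand), at base 1879 of the transcript.

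The order of the islet arrays in Car9 can be set beside the markers. The acinar sum was likewise higher on islet replicate 2, at 6325 against 3957 on replicate 1. So were the erythroid sum, at 26.0 against 3.75, and the macrophage sum, at 203 against 173. The mesenchymal stromal sum was too, at 49.9 against 40.3, although it was higher in the clusters than in the islets. The endocrine sum ran the other way, at 30.4 on replicate 2 against 171 on replicate 1, as did the skeletal muscle sum, at 1.90 against 3.96. The duct, adipocyte and endothelial sums were nearly level. With 2 islet arrays only their order can be compared. Of the 12 acinar markers, 5 were well above background on both cluster arrays and 7 on neither. The part of these cells in the Car9 difference was not tested.

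Car12, an isozyme of kidney, colon and sweat gland epithelium, was higher in the clusters. Its levels were 0.33 and 0.15 in the clusters and -0.88 and -0.74 in the islets. Both cluster arrays exceeded both islet arrays, with SDs of 0.13 and 0.10, and the difference of 1.05 ± 0.15 is 2.07-fold. It kept this direction in 17 alternatives, from 0.81 to 1.27. The probe is at chr9:66614542-66614601 (mm9).

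Car14, the third isozyme that crosses the membrane, was low and did not separate the groups. It lay at -2.80 and -2.93 in the clusters and at -2.94 and -2.60 in the islets, with a difference of -0.09 ± 0.18 that turns to 0.12 when arrays are scaled to their medians. The 3 membrane-spanning isozymes thus had 3 different patterns: lower in the clusters for Car9, higher for Car12, and overlapping for Car14. The Car14 probe is at chr3:95701859-95701918 (mm9).

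Car6 is the secreted isozyme, known from saliva and milk. Its processed signals were 3979 and 3991 in the clusters and 11.8 and 13.6 in the islets. As levels these were 3.59 and 3.48 in the clusters and -4.68 and -4.09 in the islets, all well above background by the flags of the scanner software. Islet replicate 1 lay near the lowest signal that was well above background on that array, which was -4.96. The groups were far apart and the cluster arrays differed by only 0.11.

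The Car6 difference was 7.93 ± 0.24 (SE, n = 2 each), or 243-fold higher in the clusters. It was 5.52 with normexp background correction, which lifts signals near background, and 7.63 to 8.22 when single arrays were left out. One probe represents the gene, at chr4:149561160-149561219 (mm9, minus strand), base 1274 of the transcript. It shared no run of 16 bases with the promoter of another gene. The acinar markers, which stand for a secretory epithelium, ran opposite to Car6, with sums of 1.66 and 1.64 in the clusters and of 3957 and 6325 in the islets. The 10 mesenchymal stromal markers ran the same way as Car6, with all 10 higher in the clusters and sums of 2140 and 1952 in the clusters and of 40.3 and 49.9 in the islets. All other marker lists ran opposite to Car6, as the acinar list did, with higher sums in the islets. Among all genes, 27.2% were higher in the clusters. The part of any of these cells in the Car6 difference was not tested.

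Car8 belongs to the related proteins without enzyme activity. In mouse Purkinje cells it binds the inositol trisphosphate receptor Itpr1 and lowers its affinity for the ligand. Both of its probes, at chr4:8070545-8070604 and chr4:8068657-8068716 (mm9), were not well above background on any array. Of the 3 receptors, Itpr1 was not tested because of a non-uniform spot, Itpr2 differed by -0.13 and did not pass, and Itpr3 was lower in the clusters, with a difference of -1.81 ± 0.13 (limma, adjusted p = 0.000864).

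**Figure D3:**
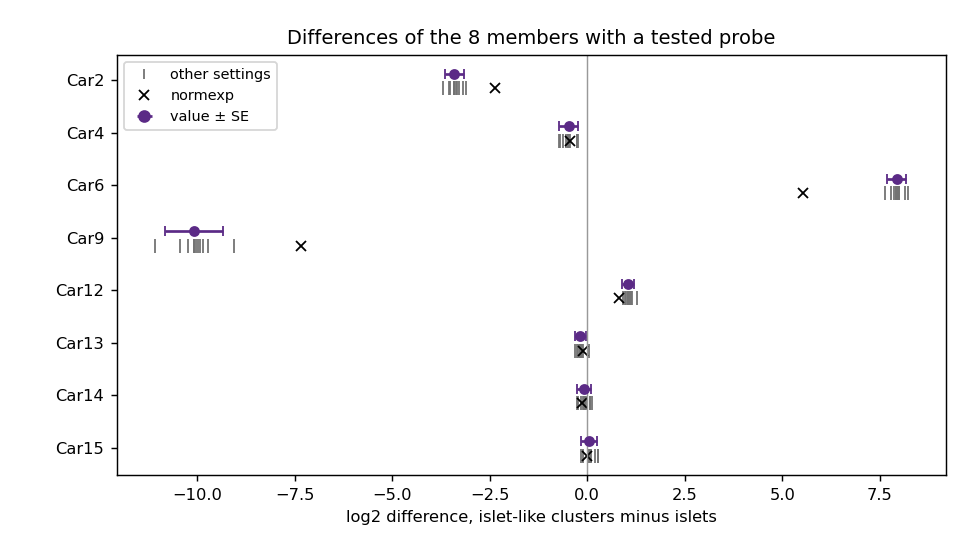
Log2 difference of the 8 tested genes, islet-like clusters minus islets, with the SE of the fit as bars, and below each the same difference under other processing settings (ticks) and normexp background correction (cross). Car6 at 7.93 and Car9 at -10.07 stand farthest from 0, and normexp moves both towards it, to 5.52 and -7.33.

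The 250 bases before the transcription start of Car9 and Car6 are shown because these 2 genes differed most, in opposite directions, and Car9 is a known hypoxia target. The sequences are those of RefSeq on GRCm38.p6, a later build than that of the array files, printed 5′ to 3′ on the strand of the gene. Capitals mark ACGTG or its reverse complement CACGT, a form of the core of the element bound by hypoxia-inducible factors. The form GCGTG, with the reverse complement CACGC, was not searched and is not marked. The Car9 window is chr4:43506776-43507025 (plus strand) and the Car6 window is chr4:150201136-150201385 (minus strand).
Car9 promoter: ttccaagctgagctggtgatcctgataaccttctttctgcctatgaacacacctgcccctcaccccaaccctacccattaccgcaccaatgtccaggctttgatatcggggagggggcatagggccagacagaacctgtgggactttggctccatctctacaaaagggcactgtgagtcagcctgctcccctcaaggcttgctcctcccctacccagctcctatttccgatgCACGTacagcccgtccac
Car6 promoter: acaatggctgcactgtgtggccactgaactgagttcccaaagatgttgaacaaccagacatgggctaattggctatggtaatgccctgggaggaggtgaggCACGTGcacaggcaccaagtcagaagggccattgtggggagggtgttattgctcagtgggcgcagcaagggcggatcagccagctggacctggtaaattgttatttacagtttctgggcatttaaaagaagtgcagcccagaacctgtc
The Car9 window holds 1 match, which starts 18 bases before the transcription start. The Car6 window holds CACGTG, 149 bases before the start, in which both strands match and the 2 matches overlap. Car14 has 1 match, 7 bases before its start. Of the 10 genes, 6 have a promoter in the table, and 3 of these 6 hold ACGTG on either strand. Beside this stand 16.6% of the 32851 promoters and 1 of 9 promoters (11.1%) of the other carbonic anhydrases. Promoters that hold only GCGTG, such as that of Car5b, are not counted, so nothing is read from these shares. The 3 genes with a match had different patterns, with Car9 lower in the clusters, Car6 higher and Car14 overlapping.

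Of the 6 remaining carbonic anhydrase genes on the arrays, 4 were tested, of which 1 was higher and 3 were lower in the clusters (limma, adjusted p under 0.05 over all genes), beside 27.2% higher and 30.7% lower among all genes. Their median difference was -0.89, against -0.15 over all genes. Car1, the abundant cytosolic isozyme of red cells, had levels of -1.17 and -1.40 in the clusters and of -0.15 and -0.08 in the islets. It was lower, with a difference of -1.17 ± 0.15 (limma, adjusted p = 0.00421), from 1 of its 2 probes, while its other probe was not well above background on any array. Car1 was nearly even between the islet arrays, where the erythroid sum was 3.75 on replicate 1 and 26.0 on replicate 2. The part of red cells in the Car1 signal was not tested, and 2 islet arrays give only an order.

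Car7, a cytosolic isozyme of brain and muscle, lay at 0.44 and 0.23 in the clusters and at 0.86 and 1.05 in the islets. It was lower, with a difference of -0.62 ± 0.16 (limma, adjusted p = 0.0305), a call lost in 7 of 17 alternatives, over which the adjusted p ran from 0.0113 to 0.167. Without cluster replicate 2 the adjusted p was 0.167, without cluster replicate 1 it was 0.0822, and without islet replicate 2 it was 0.0692.

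Car10 and Car11 are related proteins without activity that are expressed mainly in brain. Car10 was not well above background in the clusters at any of its 4 probes and was above it on both islet arrays at 2 of them. The brighter of these 2 gave at least 2.59-fold lower signal in the clusters (limma, adjusted p = 0.00148). Its measured difference of -1.45 became -0.50 with normexp. Here and below, a fold written "at least" is a bound for the main processing only, and normexp gave smaller differences. Car11 stood at -0.59 and -0.76 in the clusters and at -1.79 and -1.42 in the islets, higher by 0.92 ± 0.19 (limma, adjusted p = 0.0155). That call was lost without either cluster array, with adjusted p = 0.0793 without replicate 1 and 0.0510 without replicate 2, in a range of 0.00530 to 0.0793 over the alternatives. The mitochondrial isozymes gave almost no signal, since Car5a was not well above background on any array and Car5b was above it on cluster replicate 2 only.

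**Figure D4:**
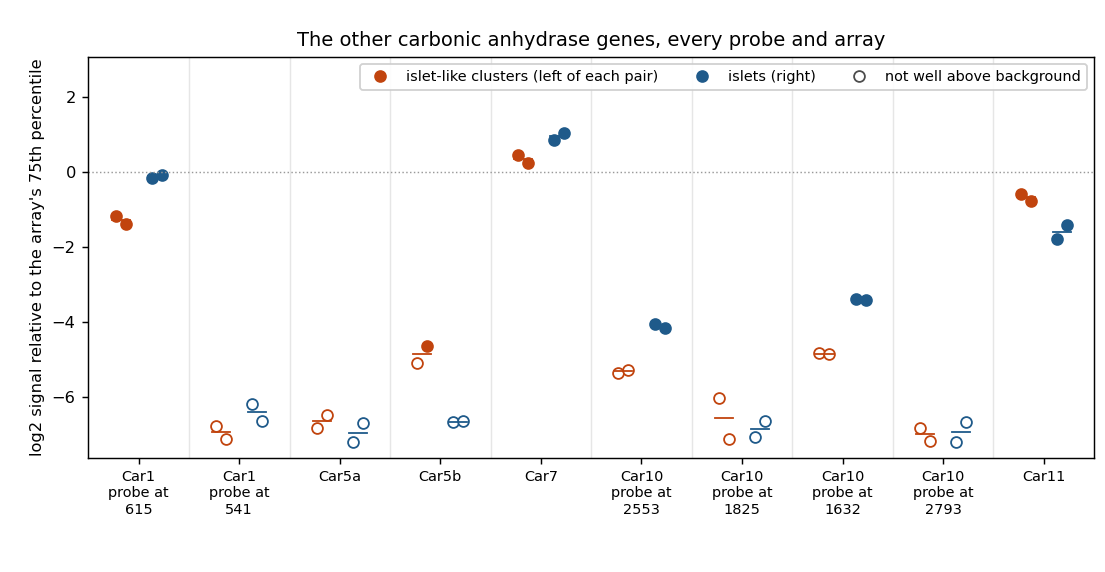
Level of every probe of the 6 remaining carbonic anhydrase genes on each array, as log2 signal relative to the 75th percentile of the array, with islet-like clusters left of islets, short lines at group means and open circles for signals not well above background. Car1, Car7 and Car10 lie lower in the clusters and Car11 higher, and 4 of the 10 probes are open on all 4 arrays.

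The genes that move the products of the reaction were compared next, in lists chosen with earlier results of these arrays known. Of 22 bicarbonate transporters, 15 were tested, and 2 were higher, 4 lower and 9 not past the threshold, with a median difference of -0.26. The 6 past it are 40.0% of those tested, beside 57.9% of all genes. Slc4a4, the sodium bicarbonate cotransporter of the basolateral duct membrane, had levels of -1.62 and -1.86 in the clusters and of 1.48 and 1.46 in the islets. It was lower, with a difference of -3.21 ± 0.15 (limma, adjusted p = 0.000293) that became -2.57 with normexp. Slc26a9, an epithelial anion transporter, was not well above background in the clusters and at least 409-fold lower there than in the islets (limma, adjusted p = 0.000482). The measured Slc26a9 difference of -10.21 became -6.21 with normexp, -8.68 with a floor for dim signals, -11.05 without cluster replicate 1 and -9.36 without cluster replicate 2.

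Slc4a11, a relative of the bicarbonate transporters in corneal endothelium, was lower, with a difference of -2.16 ± 0.16. Slc26a1, a sulfate and oxalate exchanger, was lower, with a difference of -1.31 ± 0.29 (limma, adjusted p = 0.0197), a call lost without cluster replicate 1, with adjusted p = 0.0650 in a range of 0.00206 to 0.0650. Slc26a11 was higher by 1.76 ± 0.14, and Slc4a8, a sodium-driven chloride bicarbonate exchanger, was higher by 1.12 ± 0.14. The Slc4a8 difference became 0.31 with normexp, with a limma adjusted p of 0.0814 in a range of 0.00146 to 0.0814. Cftr, the chloride and bicarbonate channel of duct cells, differed by -1.80 and did not pass (limma, adjusted p = 0.0688). Cftr is also 1 of the 10 duct markers, whose sums were 5.63 and 5.98 in the clusters and 328 and 327 in the islets, and the part of duct cells in these differences was not tested.

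Of 19 proton exporters and monocarboxylate carriers, 17 were tested, with 5 higher, 6 lower and 6 not past the threshold and a median of -0.23. The share past it was 64.7%, beside 57.9% of all genes. Slc9a3r1, the scaffold that holds the exchanger Slc9a3 and Cftr at the apical membrane, was lower, with a difference of -3.64 ± 0.16 (limma, adjusted p = 0.000242) that became -2.88 with normexp, and the related scaffold Slc9a3r2 was lower, with a difference of -1.42 ± 0.16. Slc9a7, a sodium proton exchanger of the Golgi, was at least 13.9-fold lower, its measured difference of -5.55 becoming -1.95 with normexp. Bsg, the chaperone of the lactate carriers, was lower, with a difference of -1.38 ± 0.19. Hvcn1, the voltage-gated proton channel, was higher by 1.76 ± 0.17, and by 3.19 with its probes averaged. Slc9a3 was at least 3.95-fold higher in the clusters (limma, adjusted p = 0.0119). Its measured difference of 2.94 became 0.47 with normexp, 3.72 without islet replicate 1 and 2.16 without islet replicate 2.

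Slc9a5 was at least 2.07-fold higher (limma, adjusted p = 0.0186), but not past the threshold with normexp (adjusted p = 0.452) or with a floor for dim signals (adjusted p = 0.0945), in a range of 0.00110 to 0.452. Its measured difference of 2.47 became 0.16 with normexp and 1.05 with the floor, and was 1.81 without cluster replicate 1 and 3.13 without cluster replicate 2. Slc16a3, the lactate exporter of glycolytic cells and a known hypoxia target, was higher by 0.86 ± 0.22 (limma, adjusted p = 0.0301). That call was lost in 5 of 17 alternatives, among them without cluster replicate 1 (adjusted p = 0.116) and without cluster replicate 2 (adjusted p = 0.0870), in a range of 0.00151 to 0.116.

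Of 10 enzymes that use bicarbonate, 9 were tested, with 5 higher, 2 lower and 2 not past the threshold and a median of 0.79. The share past it was 77.8%, beside 57.9% of all genes. The 2 acetyl-CoA carboxylases went opposite ways. Acaca, the cytosolic form that feeds fatty acid synthesis, was higher by 1.90 ± 0.20 (limma, adjusted p = 0.00223). Acacb, the mitochondrial form that restrains fatty acid oxidation, had levels of 0.25 and -0.02 in the clusters and of 4.56 and 4.48 in the islets, with a difference of -4.40 ± 0.16 (limma, adjusted p = 0.000163).

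Adcy10, the soluble adenylyl cyclase that bicarbonate activates, was higher by 2.01 ± 0.30 (limma, adjusted p = 0.00643), and by 0.47 with normexp. It was near background in the islets, at -4.88 and -4.09, and well above it on 1 of the 2 islet arrays. It thus entered the comparison through the clusters. Among the mitochondrial carboxylases, Mccc2 was higher by 1.00 ± 0.14 and Pccb was lower, at -1.39 ± 0.15. Mccc1 was higher by 1.02 ± 0.19 (limma, adjusted p = 0.0120), a call lost without cluster replicate 1 (adjusted p = 0.0578) or cluster replicate 2 (adjusted p = 0.0524), in a range of 0.000542 to 0.0578.

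Other hypoxia-inducible genes were split in direction. Of 21 listed genes 20 were tested, with 9 higher, 8 lower and 3 not past the threshold and a median of -0.43, and 17 of 20 past it stand beside 57.9% of all genes. Vegfa, the angiogenic growth factor, had levels of 7.04 and 6.93 in the clusters and of 2.89 and 2.73 in the islets, higher by 4.17 ± 0.14 (limma, adjusted p = 0.000148). P4ha1, a collagen prolyl hydroxylase subunit, was higher by 2.90 ± 0.16, Pfkfb4 by 2.04 ± 0.17 and Ero1l by 1.79 ± 0.15. Car9 itself, at -4.38 and -5.09 in the clusters, was near background where these were higher.

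In the other direction, Ndrg1 was lower, with a difference of -2.88 ± 0.13 (limma, adjusted p = 0.000252), with levels of 3.42 and 3.43 in the clusters and of 6.29 and 6.32 in the islets. Adm, the vasodilator adrenomedullin, was lower, with a difference of -2.22 ± 0.29, and so was the glycolytic enzyme Aldoa, at -1.21 ± 0.15. Pdk1, which restrains entry of pyruvate into mitochondria, differed by -5.76 ± 1.62 (limma, adjusted p = 0.0385), with levels of -6.82 and -2.16 in the clusters and of 0.91 and 1.62 in the islets. Its cluster arrays disagreed, since only replicate 2 was well above background. The Pdk1 difference was -3.43 without cluster replicate 1 and -8.09 without cluster replicate 2, and the call was lost in 6 of 16 alternatives, among them without islet replicate 2 (adjusted p = 0.0702), in a range of 4.65e-05 to 0.157.

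**Figure D5:**
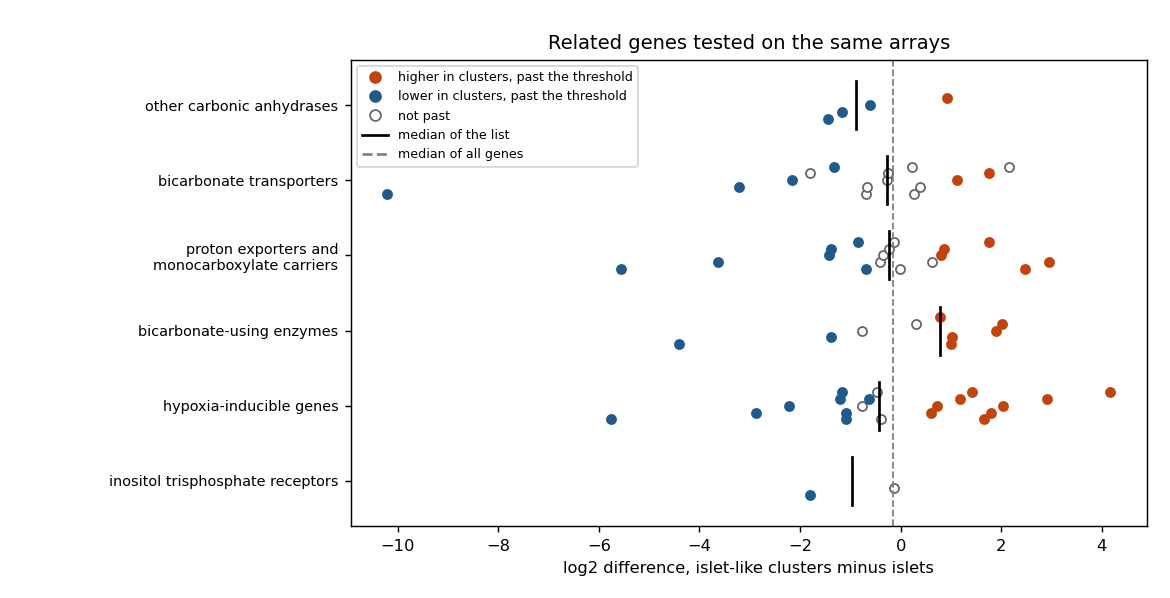
Log2 difference of every tested gene of 6 related lists, islet-like clusters minus islets, filled where the gene passed an adjusted p of 0.05 and open where it did not, with a bar at the median of each list and a dashed line at the median of all genes, -0.15. Measured differences are drawn also for genes not well above background in a group, such as the bicarbonate transporter Slc26a9 at -10.21, and each list but the receptors holds genes on both sides of 0.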

How the data were processed

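RNA from 4 samples was measured on 1-colour Agilent mouse arrays, with 500 ng per sample primed with oligo-dT per the labels. The deposited scanner files hold linear spot intensity, and per the file headers Agilent Feature Extraction 11.5.1.1 subtracted the background and detrended it, with probes placed on mm9. Group and replicate were taken from the titles, which call the clusters insulin producing. Islet-like clusters is the group name used here. All 4 arrays lie on 1 slide.

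The genes and lists were chosen with earlier results of these data known. The processed signal was taken as log2 and the 75th percentile over the non-control probes with a value on every array was subtracted. Taking the percentile over each array's own probes moves cluster replicate 1 by about 0.12 against the others, because 510 of its spots are non-uniform against 2 to 26 elsewhere. The common set was chosen after seeing the data, and the other scaling is an alternative added then.

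Control and non-uniform spots were left out, which dropped 490 of 55681 probes, and spots of a probe were averaged. Probes had to be well above background in 1 or both groups, on every array of that group (34971 probes), and a gene is its kept probe with the highest mean. The comparison used R 4.3.3 and limma 3.58.1 (lmFit, eBayes, 2-sided, no covariates, 2 residual degrees of freedom and 4.28 in total), and p-values were adjusted by Benjamini-Hochberg over 24595 genes. The step was tested on simulated data. A fold written "at least" sets the mean of the brighter group against, per dim array, the higher of its lowest well-detected signal and the probe's own. It is a bound for the main processing only, since normexp gave a smaller difference for every gene written so. Named are all carbonic anhydrases and at most 4 called genes per list and direction, those with the largest differences. Itpr2, Cftr and marker genes outside that rule were named after their values were seen.

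The authors' value table holds log2 values that correlated with the scanner values at r = 0.99995 or higher, with an offset of about -0.10, so scale and direction are known and genes are not centred. Its column medians were -3.61 and -3.70 (clusters) and -3.50 and -3.37 (islets), and it served as an alternative. Flags of the software were used as deposited. The number of arrays limits the precision. Protein sequences were not used here.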

Additional observations from a re-analysis of the deposited data

How the results depend on the processing

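Results were recomputed with normexp background correction (offset 50), 4 other scalings, 2 other filters on dim probes, a floor for dim signals, non-uniform spots kept, probes averaged, the authors' value table, a variance trend with robust fitting, the replicate number as a block, and each array left out in turn. Past the threshold were 4 of the 10 carbonic anhydrases described in each of these except with only probes above background on all arrays, where Car9 left and 3 remained. Among the other named genes no difference changed sign, 528 gene and setting pairs kept their call and 26 lost it. Leaving out single arrays gave 10016 to 15006 calls over all genes, 4 of the carbonic anhydrases described in each fit, 2 to 4 of the other carbonic anhydrases (2 without either cluster array), 5 to 10 bicarbonate transporters (10 without islet replicate 2), 7 to 11 proton exporters and carriers (7 without cluster replicate 2), 5 to 8 bicarbonate-using enzymes, 13 to 18 hypoxia-inducible genes and 1 receptor. With 1 array left in a group, it is assumed to vary like the other group. Scaling to array medians moved the median of all genes by 0.22 and gave 7849 higher and 5952 lower genes, against 6691 and 7561. With the replicate block 12080 genes passed, 4 of the carbonic anhydrases described and 3 of the others, of which Car7 lost its call. Deviations of same-numbered arrays correlated at -0.02 across genes, so the signals showed no effect shared by replicate number. This correlation cannot tell whether same-numbered arrays came from the same mice. The scaling over each array's own probes, added after seeing the data, gave 13492 calls. Signals near background limit what a difference can show: for Car9, dim in the clusters, and Car6, dim in the islets, normexp changed the size and not the direction.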
